A study of Homo sapiens with 18 samples.

Results

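INSM1 encodes a zinc finger transcription factor of neuroendocrine cells, and it is described here together with its paralog INSM2 and 8 genes of the neuroendocrine secretory granule. The 8 granule genes are the granins CHGA, CHGB, SCG2, SCG3 and SCG5, the prohormone convertases PCSK1 and PCSK2, and PCSK1N, which encodes an inhibitor of the PCSK1 convertase. These 10 genes were found by symbol among the 57905 Ensembl gene IDs counted in the series. INSM1 was chosen because its counts were lower in the ABCC1-overexpressing libraries than in the control libraries of all 3 experiments. Its difference between the lines is therefore given as a description and carries no test. The other 9 genes were chosen by name.

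Neuroendocrine cells store peptide hormones and neuropeptides in dense-core granules that bud from the trans-Golgi network. Granins aggregate in the acidic lumen of the forming granule and help to package its cargo, and the prohormone convertases cleave the cargo into active peptides while the granule matures. INSM1 is needed for the differentiation of several neuroendocrine lineages, among them the chromaffin cells and sympathetic neurons from whose precursors neuroblastoma arises. INSM2 is a close relative that, like INSM1, is encoded by a gene without introns.

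RNA was sequenced from BE(2)-m17, a human neuroblastoma line, in 3 experiments of 6 libraries, 18 libraries in all. Every library came from cells that already carried pSBbi-Hyg-APP, a Sleeping Beauty transposon vector for the amyloid precursor protein. The control cells, called Puro, also held the empty vector pSBbi-Pur, and the compared cells, called ABCC1, held pSBbi-Pur-ABCC1(WT), which encodes the transporter ABCC1. Each of the 6 groups had 3 libraries, and the comparison asks which transcripts differ when ABCC1 is overexpressed. In each culture 14000000 cells were plated, and RNA was taken on day 4. Cells were selected with antibiotics after integration, and neither the promoter that drives the transgene nor the number of clones in a line is given in the sources used here. The second experiment was taken as cryopreserved cells and the third as newly transfected cells only because the study describes them in that order. The labels do not say that the 3 libraries of a group came from separate cultures, although the study describes weekly plating, so p-values measure the spread between these libraries.

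Libraries held from 8866994 to 57937653 read pairs that fell on a counted gene, fewest in the third experiment. The transgene was present where the labels placed it, with exogenous ABCC1 at a mean of 4517 to 10247 CPM, counts scaled to 1e+06 per library, in the ABCC1 groups and 0.135 to 0.304 CPM in the Puro groups. CPM values are counts divided by the library size after TMM scaling, which sets the bulk of the genes level between the libraries of 1 experiment. All 12 markers of adrenergic neuroblastoma cells were at 1 CPM or more in every group, and their summed level was 4626 to 7730 CPM per library. The 12 mesenchymal markers summed to 407 to 675 CPM, and none of either list was at 0. The variation between replicates (biological coefficient of variation) was 5.67% in the first experiment, 35.3% in the second and 19.7% in the third. Background reads per kilobase of exon were measured on 350 olfactory receptor genes, assumed not to be expressed here. This background was at most 0.00558 CPM per kilobase (CPM/kb) in the first experiment, 0.140 to 0.663 CPM/kb in the second and 1.15 to 1.65 CPM/kb in the third. It was lower in the ABCC1 libraries than in the Puro libraries of every experiment, with no overlap between the groups.

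The start regions of 4 genes named in the results below are shown. PCSK1 was lower and INSM2 was higher in the joint fit, CHGA was the granin with the highest level, and VGF, a granule peptide precursor outside the 10 genes, was higher. RefSeq start sites (GRCh38.p14) were found for 7 of the 10 genes, and INSM1, CHGB and SCG2 had none in the table used. The last 110 bases before the start are printed 5′ to 3′ on the gene's strand. Capitals mark TGACGTCA, the letters of the cyclic AMP response element, in PCSK1, CHGA and VGF, and TATAAA and CCAAT in INSM2, where CCAAT lies on the other strand and is read as ATTGG.
PCSK1 (chr5:96433249-96433358, minus strand, the first of 2 listed starts): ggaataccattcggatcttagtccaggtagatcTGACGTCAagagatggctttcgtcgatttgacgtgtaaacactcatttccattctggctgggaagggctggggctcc
CHGA (chr14:92923040-92923149, plus strand): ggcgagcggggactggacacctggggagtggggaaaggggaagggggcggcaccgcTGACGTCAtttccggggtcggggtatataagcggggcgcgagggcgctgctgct
VGF (chr7:101165570-101165679, minus strand): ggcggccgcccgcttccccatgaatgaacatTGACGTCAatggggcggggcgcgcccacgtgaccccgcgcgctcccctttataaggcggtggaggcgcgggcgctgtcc
INSM2 (chr14:35534054-35534163, plus strand): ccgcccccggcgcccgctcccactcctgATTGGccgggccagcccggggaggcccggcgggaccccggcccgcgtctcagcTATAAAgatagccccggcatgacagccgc

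Each motif was searched on both strands from 250 bases before to 50 bases after the start. TGACGTCA was found in 1.85% of the 35116 start regions. It lay 77 to 70 bases before the start of PCSK1, 54 to 47 bases before that of CHGA and 79 to 72 bases before that of VGF. TATAAA was found in 11.5% of the regions and CCAAT in 34.6%, and in INSM2 they lay at 29 to 24 and 82 to 78 bases before the start. Both were also found at the other start of PCSK1, and CCAAT in SCG3, PCSK2 and VGF. GGGCGG, in 45.0% of the regions, was found in all 7 of the genes with a start site. CAGCTG was found in 17.9% of the regions, among them SCG3 and the other start of PCSK1. CACGTG was found in 7.26% of the regions and in none of the 7 genes, but in VGF it lay 54 to 49 bases before the start and TATAAA 32 to 27 bases before it on the other strand, where it is read as TTTATA, and both are printed above in lower case. These matches describe the letters of the windows only. Of the genes that hold TGACGTCA, PCSK1 was lower and VGF higher in the joint fit, and CHGA did not pass there.

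INSM1 (ENSG00000173404; chromosome 20, 20348765 to 20351590, plus strand, GRCh37, 1 exon of 2826 bases) was lower in the ABCC1 cells of all 3 experiments. In the first experiment the Puro libraries held 11.9, 10.4 and 10.2 CPM and the ABCC1 libraries 1.54, 1.24 and 2.19 CPM. INSM1 in the second experiment stood at 9.46, 11.4 and 9.54 CPM in the Puro libraries and at 3.67, 3.62 and 3.77 CPM in the ABCC1 libraries. INSM1 in the third experiment stood at 18.3, 29.7 and 16.7 CPM in the Puro libraries and at 3.76, 3.95 and 5.36 CPM in the ABCC1 libraries. Every ABCC1 library was thus below every Puro library of its experiment. The log2FC of ABCC1 over Puro was −2.67 (SE 0.15, n = 3 libraries per group) in the first experiment, −1.46 (SE 0.25) in the second and −2.30 (SE 0.22) in the third, which are 6.35-fold, 2.75-fold and 4.94-fold lower levels. In RNA from whole cultures, fewer cells with the transcript and less transcript per cell cannot be told apart.

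The counts behind INSM1 were modest, and its distance from background was not the same in each experiment. The Puro libraries held 284 to 518 counts of INSM1 in the first experiment and the ABCC1 libraries 40 to 127. In the second experiment these were 198 to 341 and 79 to 117 counts, and in the third 160 to 327 and 44 to 65 counts. Reads carried no molecular identifiers, so counts and any interval from them cover counting error only. Per kilobase, INSM1 in the ABCC1 libraries lay at 115 to 191 times the background of its own library in the first experiment and at 3.10 to 9.26 times in the second. In the ABCC1 libraries of the third experiment it lay at 0.926 to 1.66 times the background, so INSM1 there could not be separated from background reads. When each library's background was subtracted, an alternative chosen after seeing the data, the log2 ratio of the group means was −2.72 in the first experiment and −1.59 in the second. For the third experiment it was −4.40, with 1 ABCC1 library below 0 after the subtraction.

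**Figure D1:**
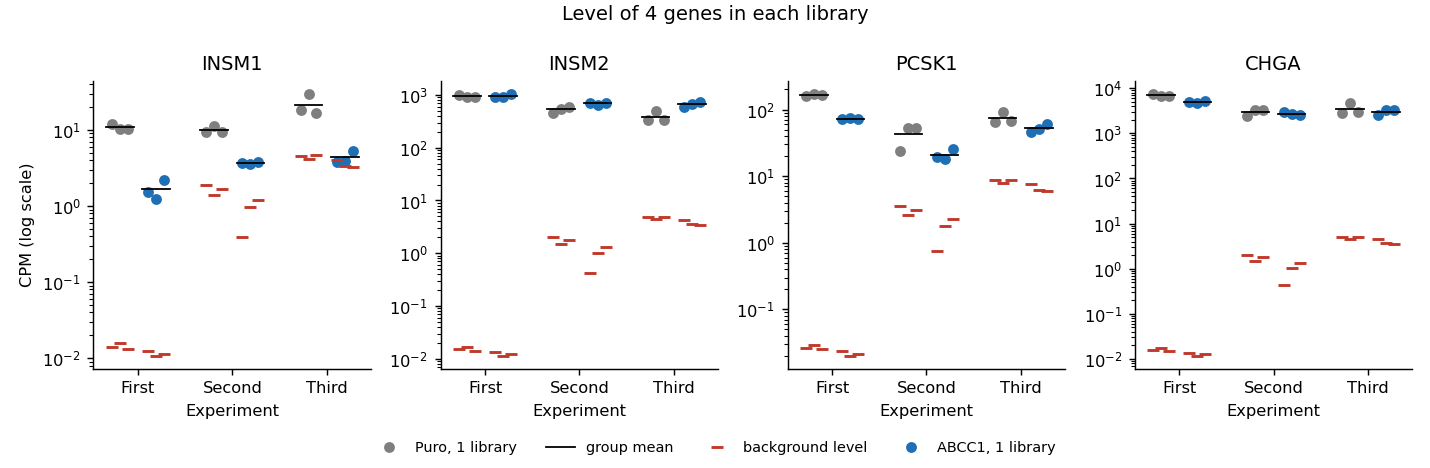
CPM (log scale) of INSM1, INSM2, PCSK1 and CHGA in each library of the first, the second and the third experiment, with Puro libraries in grey, ABCC1 libraries in blue, the group mean as a black line and the background expected for the gene's length as a red dash. The blue INSM1 points of the third experiment lie at the red dashes (0.926 to 1.66 times background), while INSM2 and CHGA lie far above them in every library.

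INSM2 (ENSG00000168348; chromosome 14, 36003248 to 36006260, plus strand, 1 exon of 3013 bases) did not follow INSM1. In the first experiment INSM2 stood at 979, 919 and 910 CPM in the Puro libraries and at 904, 909 and 1036 CPM in the ABCC1 libraries. INSM2 in the second experiment stood at 452, 548 and 603 CPM in the Puro libraries and at 710, 653 and 705 CPM in the ABCC1 libraries. INSM2 in the third experiment stood at 332, 499 and 333 CPM in the Puro libraries and at 593, 681 and 732 CPM in the ABCC1 libraries. The groups overlapped in the first experiment, and all ABCC1 libraries were above all Puro libraries in the second and the third. The log2FC was 0.02 (SE 0.06, adjusted p = 0.810) in the first experiment, 0.37 (SE 0.19, adjusted p = 0.265) in the second and 0.78 (SE 0.21, adjusted p = 0.0218) in the third. DESeq2 called INSM2 in the second experiment (log2FC 0.47, adjusted p = 0.0481). The call in the third experiment was lost without Puro replicate 1 (log2FC 0.72, adjusted p = 0.206), Puro replicate 3 (0.72, 0.222), ABCC1 replicate 2 (0.78, 0.180) or ABCC1 replicate 3 (0.72, 0.229). With background reads as a covariate the log2FC in that experiment was 0.31 (adjusted p = 0.803).

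In the joint fit of 18 libraries INSM2 had a mean log2FC of 0.46 (SE 0.11, adjusted p = 0.00145), which averages a value near 0 in the first experiment with higher values in the second and the third. A difference of this effect between experiments did not pass the test (unadjusted p = 0.0219, adjusted p = 0.415). Per kilobase of exon, INSM2 was far more abundant than INSM1 in every library. The ratio of INSM2 to INSM1 was 77.1 to 83.8 in the Puro libraries of the first experiment and 444 to 688 in its ABCC1 libraries. The ratio was 44.8 to 59.3 in Puro and 169 to 181 in ABCC1 in the second experiment, and in the third it was 15.8 to 18.7 in Puro. No ratio is given for the ABCC1 libraries of the third experiment, where INSM1 lay at background. The higher ratios in ABCC1 include the fall of INSM1, by which it was chosen. INSM2 ranked 63 to 145 of 19263 protein-coding genes by CPM/kb in the 6 groups, and INSM1 ranked 4476 to 8051 in the Puro groups and 10821 to 14359 in the ABCC1 groups.

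CHGA (chromosome 14, 93389425 to 93401638, plus strand, 9 exon blocks) encodes chromogranin A, the most used marker of neuroendocrine cells, and it had the highest level of the 10 genes in every group. In the first experiment it stood at 7407, 6723 and 6823 CPM in the Puro libraries and at 4928, 4721 and 5103 CPM in the ABCC1 libraries, with no overlap. CHGA in the second experiment stood at 2444, 3309 and 3309 CPM in Puro and at 2920, 2706 and 2506 CPM in ABCC1, and the groups overlapped. CHGA in the third experiment stood at 2757, 4622 and 2980 CPM in Puro and at 2609, 3245 and 3264 CPM in ABCC1, where the groups overlapped again. The log2FC was −0.51 (SE 0.06, adjusted p = 6.42e-05) in the first experiment, −0.16 (SE 0.21, adjusted p = 0.686) in the second and −0.18 (SE 0.26, adjusted p = 0.793) in the third. CHGA took 0.667% to 0.734% of all assigned read pairs in the Puro libraries of the first experiment and 0.476% to 0.511% in the ABCC1 libraries.

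CHGB (chromosome 20, 5892076 to 5906007, plus strand, 6 exon blocks) encodes chromogranin B, a granin of the granule matrix. In the first experiment CHGB stood at 1399, 1388 and 1440 CPM in the Puro libraries and at 998, 976 and 716 CPM in the ABCC1 libraries (log2FC −0.65, SE 0.11, adjusted p = 0.00137). CHGB in the second experiment stood at 405, 669 and 456 CPM in Puro and at 650, 595 and 442 CPM in ABCC1 (log2FC 0.14, SE 0.21, adjusted p = 0.726). CHGB in the third experiment stood at 517, 890 and 540 CPM in Puro and at 399, 469 and 435 CPM in ABCC1 (log2FC −0.58, SE 0.22, adjusted p = 0.141). CHGB was thus lower without overlap in the first and the third experiment, and passed the test in the first. Without a filter on low counts the adjusted p of CHGB in the first experiment was 0.0561.

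SCG2 (chromosome 2, 224461658 to 224467221, minus strand, 3 exon blocks) encodes secretogranin II, the precursor of the peptide secretoneurin. SCG2 stood at 1805 to 1893 CPM in the Puro libraries and 1334 to 1581 CPM in the ABCC1 libraries of the first experiment, with a log2FC of −0.30 (SE 0.07, adjusted p = 0.00486). Its log2FC was 0.07 (SE 0.23, adjusted p = 0.870) in the second experiment and −0.10 (SE 0.22, adjusted p = 0.876) in the third, and the groups overlapped in both. ABCC1 replicate 3 of the first experiment had the lowest CHGB and SCG2 of its group and the highest PCSK1N. CHGA, CHGB and SCG2 passed in each of the 6 fits of the first experiment that left out 1 library. With background reads as a covariate they did not pass there (log2FC −0.51, −0.63 and −0.32, adjusted p = 0.0506, 0.128 and 0.221). That covariate itself differed between the lines without overlap. Nor did they pass with the first experiment's values of the joint fit (log2FC −0.40, −0.56 and −0.20, adjusted p = 0.500, 0.157 and 0.913). The joint fit shares the spread across the 18 libraries and also filters and scales them together.

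SCG3 (chromosome 15, 51973550 to 52013223, plus strand, 12 exon blocks) encodes secretogranin III, which holds granin aggregates to the granule membrane. SCG3 had a log2FC of −0.10 (SE 0.05, adjusted p = 0.144), 0.31 (SE 0.19, adjusted p = 0.339) and 0.18 (SE 0.19, adjusted p = 0.714) in the first, the second and the third experiment. SCG5 (chromosome 15, 32933877 to 32989299, plus strand, 8 exon blocks) encodes the chaperone of the PCSK2 convertase and shares 11 of its 2192 exonic bases with an antisense gene. Its log2FC was 0.05 (SE 0.05, adjusted p = 0.496), 0.36 (SE 0.17, adjusted p = 0.234) and 0.17 (SE 0.16, adjusted p = 0.677). Neither gene passed the edgeR test in any experiment, and SCG5 had an unadjusted p of 0.0493 in the second. The only non-overlap was SCG3 in the second experiment, where the Puro libraries held 115 to 179 CPM and the ABCC1 libraries 181 to 199 CPM.

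PCSK1 (ENSG00000175426; chromosome 5, 95726119 to 95769847, minus strand, 17 exon blocks) encodes a convertase that cleaves many prohormones early in granule maturation, and it had the largest fall of the 8 granule genes in the joint fit. In the first experiment PCSK1 stood at 162, 170 and 168 CPM in the Puro libraries and at 72.6, 73.5 and 71.0 CPM in the ABCC1 libraries. PCSK1 in the second experiment stood at 24.2, 53.4 and 53.3 CPM in Puro and at 19.1, 18.2 and 25.2 CPM in ABCC1, where the lowest Puro library lay below the highest ABCC1 library. PCSK1 in the third experiment stood at 65.9, 93.0 and 67.0 CPM in Puro and at 46.4, 50.3 and 60.9 CPM in ABCC1, with no overlap. The log2FC was −1.20 (SE 0.04, adjusted p = 1.08e-08), −1.06 (SE 0.22, adjusted p = 0.0193) and −0.52 (SE 0.17, adjusted p = 0.0760) in the first, the second and the third experiment. The call in the second experiment was lost without Puro replicate 2 (log2FC −0.88, adjusted p = 0.0684), Puro replicate 3 (−0.89, 0.181) or ABCC1 replicate 2 (−0.97, 0.110), and with background reads as a covariate (−1.03, 0.467). PCSK1 passed in the third experiment with that covariate (−0.99, 0.0293) or with at least 10 counts required in every library (−0.48, 0.0421).

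In the joint fit PCSK1 fell by 0.87 on the log2 scale (SE 0.11, adjusted p = 1.20e-07) over the 3 experiments, a fold of 1.82. It passed in each of the 18 fits that left out 1 library, with an adjusted p of 1.41e-06 at most. A difference in its fall between experiments did not pass the test (adjusted p = 0.498). PCSK1 stayed above background, at 6.09 times or more in every library.

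PCSK2 (chromosome 20, 17206752 to 17465223, plus strand, 14 exon blocks) encodes the convertase that acts after PCSK1 on many prohormones, and it was at the edge of detection. Its libraries held 11 to 32 counts in the first experiment, at 10.2 to 24.1 times the background. It lay in the second and the third experiment at 0.693 to 1.45 times the background per kilobase, so its values there are read as background. Its log2FC was −0.07 (SE 0.25, adjusted p = 0.859), −0.64 (SE 0.46, adjusted p = 0.424) and −0.12 (SE 0.22, adjusted p = 0.848). PCSK1N (chromosome X, 48689504 to 48694035, minus strand, 4 exon blocks) had a log2FC of 0.26 (SE 0.22, adjusted p = 0.387), 0.38 (SE 0.17, adjusted p = 0.211) and 0.26 (SE 0.18, adjusted p = 0.523). In the third experiment PCSK1N stood at 43.0, 86.3 and 50.1 CPM in the Puro libraries and at 65.8, 75.0 and 73.7 CPM in the ABCC1 libraries, so 1 Puro library lay above all others. Without that library, Puro replicate 2, its log2FC was 0.63 (adjusted p = 0.00155).

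**Figure D2:**
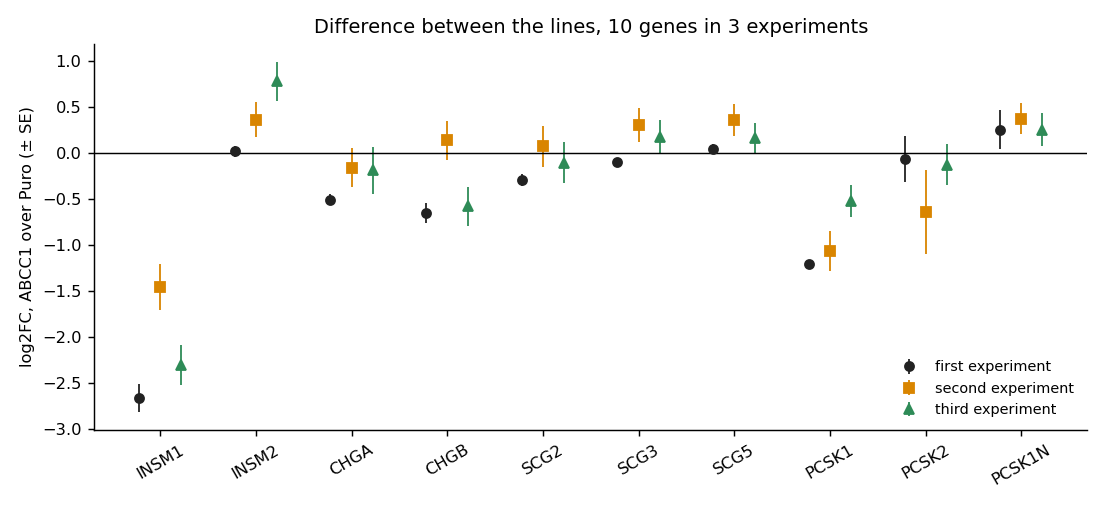
The log2FC of ABCC1 over Puro (vertical axis, ± SE, 3 libraries per group) for the 10 genes in the first (black circles), the second (orange squares) and the third (green triangles) experiment. INSM1 lies between −2.67 and −1.46 and PCSK1 between −1.20 and −0.52, whereas PCSK1N lies above 0 in all 3 experiments without passing the test in any.

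All 10 genes passed the filter on low counts in each experiment. Of the 9 genes other than INSM1, 4 passed at an adjusted p of at most 0.05 in the first experiment, all of them lower (CHGA, CHGB, SCG2 and PCSK1). In that experiment 37.6% of all genes tested passed, with 19.7% lower and 17.9% higher. Of the 9 genes 1 passed in the second experiment, PCSK1, which was lower, beside 1.7% of all genes, with 0.458% lower and 1.25% higher. The third experiment likewise had 1, INSM2, which was higher, beside 2.8% of all genes, with 0.767% lower and 2.03% higher. The median log2FC of the 9 genes was −0.10, 0.14 and −0.10 in the first, the second and the third experiment, beside 0.01, −0.19 and −0.09 over all genes tested and 0.01, 0.06 and −0.02 over the protein-coding genes among them. The share called in the first experiment lay near that of all genes, and no common direction of the 9 genes is read from these counts.

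Groups without overlap were counted as well. Lower without overlap were 4 of the 9 genes in the first experiment, beside 25.7% of all genes, and 0 were higher, beside 24.7%. Higher without overlap were 3 of the 9 in the second experiment (INSM2, SCG3 and PCSK1N), beside 13.5% of all genes, and 0 were lower, beside 16.4%. For the third experiment 2 of the 9 were lower without overlap (CHGB and PCSK1), beside 10.9% of all genes, and 1 was higher (INSM2), beside 8.59%.

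In the joint fit 12.9% of all genes passed for the effect common to the experiments, with 3.55% lower and 9.38% higher, and 2 of the 9 genes did, PCSK1 (lower) and INSM2 (higher). The median log2FC of that fit was −0.05 for the 9 genes, −0.08 over all genes tested and 0.08 over the protein-coding genes among them. INSM2 passed in each of the 18 fits that left out 1 library. SCG5 had a mean log2FC of 0.26 (adjusted p = 0.0508) and PCSK1N one of 0.36 (adjusted p = 0.0532), and each passed in 4 of those 18 fits. Without Puro replicate 2 of the third experiment their adjusted p was 0.00629 and 0.00148. SCG3 had a mean log2FC of 0.19 (adjusted p = 0.263), and with limma-voom quality weights SCG3 and SCG5 passed (adjusted p = 0.0235 and 0.0148). CHGA had a mean log2FC of −0.22 (adjusted p = 0.314) and CHGB one of −0.30 (adjusted p = 0.0836), and with RLE in place of TMM scaling these were −0.31 (adjusted p = 0.0202) and −0.39 (adjusted p = 0.00502), so both granins then passed, as they did in DESeq2 (adjusted p = 0.00149 and 0.00193) and with at least 10 counts in every library (adjusted p = 5.17e-04 and 2.30e-04). For the difference between experiments none of the 9 genes passed in edgeR, beside 1.19% of all genes. At an unadjusted p of at most 0.05 there were 3 (INSM2, CHGB and PCSK1), and at an adjusted p of at most 0.05 DESeq2 called 1 and limma-voom with quality weights 2.

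**Figure D3:**
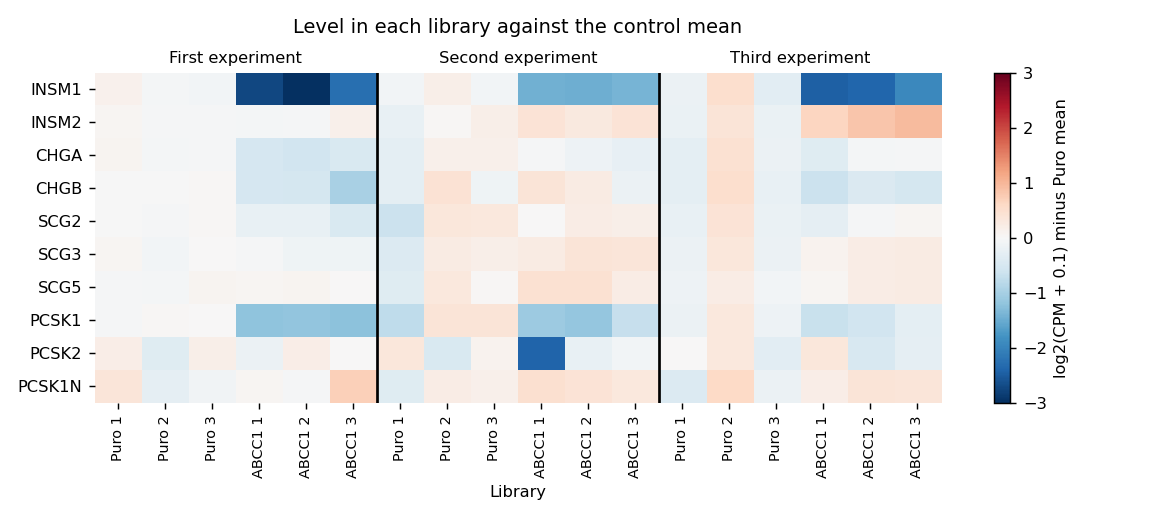
Each cell of the heat map is the log2(CPM + 0.1) of 1 gene (row) in 1 library (column) minus the mean of the 3 Puro libraries of that experiment, from blue (lower) to red (higher). The ABCC1 columns are blue for INSM1 and PCSK1 in all 3 experiments, red for INSM2 in the second and the third, and the dark cell of PCSK2 in the second experiment stands for 18 counts.

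Compared per kilobase, the order of the genes was nearly the same in all 6 groups. CHGA stood first with group means of 874 to 2252 CPM/kb, and SCG2 followed with 290 to 676 CPM/kb, overlapping INSM2 in the Puro group of the second experiment. CHGB and INSM2 came next, at 95.8 to 311 and 129 to 315 CPM/kb, and their libraries overlapped in the Puro groups of the first and the third experiment. SCG3 (46.8 to 98.3 CPM/kb) and PCSK1N (38.1 to 58.9 CPM/kb) overlapped in all groups of the second and the third experiment. SCG5 (16.4 to 22.4 CPM/kb) was above PCSK1 (3.93 to 31.4 CPM/kb) in all groups except the Puro group of the first experiment, where PCSK1 was higher and overlapped PCSK1N, and the Puro group of the third, where they overlapped. INSM1 came ninth in every group, with 3.59 to 7.62 CPM/kb in the Puro groups and 0.586 to 1.54 CPM/kb in the ABCC1 groups. PCSK2 was the lowest, and only in the ABCC1 group of the third experiment did its libraries overlap those of INSM1. In the Puro group of the first experiment CHGA ranked 5 and SCG2 ranked 24 of 19263 protein-coding genes.

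**Figure D4:**
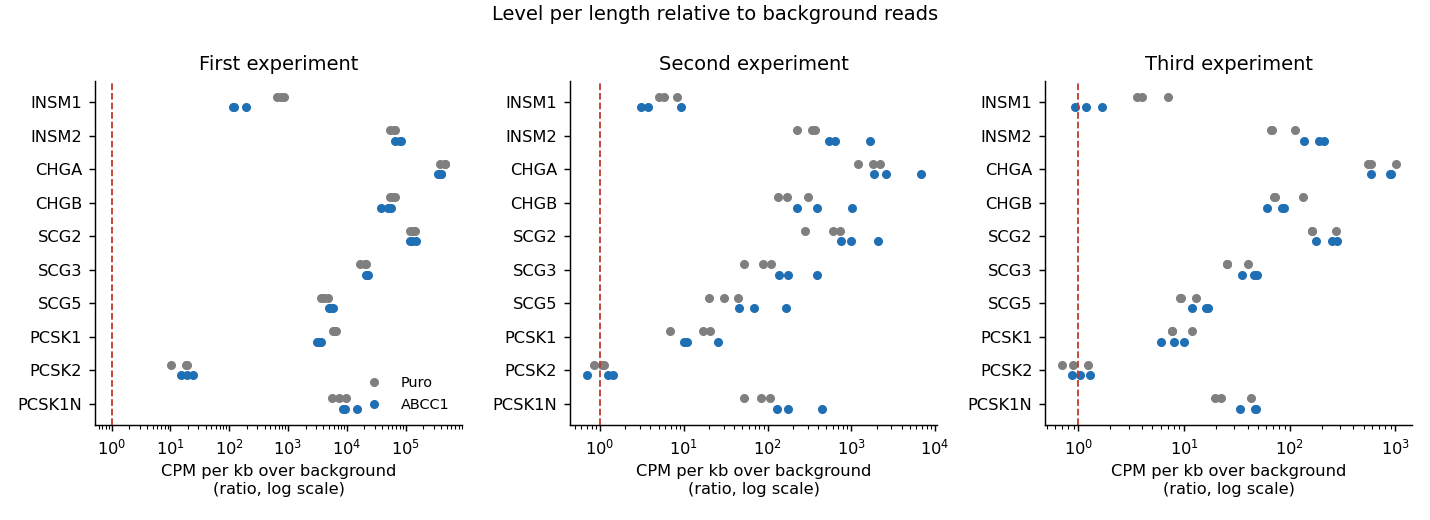
Level per kilobase of each of the 10 genes divided by the background of the same library (horizontal axis, log scale), with 1 point per library, Puro in grey and ABCC1 in blue, and a dashed line at a ratio of 1. PCSK2 lies on the line in the second and the third experiment, INSM1 reaches it in the ABCC1 libraries of the third, and the granins lie at 9.09 times the background or more in every library.

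Genes with functions around the granule were listed by name to set the 10 genes in their pathway, with earlier results of these data known. The counts of each list stand beside shares of all genes of 17.9% higher and 19.7% lower in the first experiment, 1.25% and 0.458% in the second, 2.03% and 0.767% in the third, and 9.38% and 3.55% for the common effect of the joint fit. Of 12 other matrix proteins and processing enzymes, 1 was higher and 4 were lower in the first experiment, 1 and 1 in the second, and 1 and 0 in the third, with 4 higher and 3 lower in the joint fit. VGF, a granin-like precursor of several peptides, had a log2FC of 0.16, 0.70 and 1.21 in the first, the second and the third experiment and rose by a mean log2FC of 0.76 in the joint fit (SE 0.11, adjusted p = 1.21e-06). PAM, the enzyme that amidates peptide ends, rose by a mean log2FC of 0.44 (SE 0.09, adjusted p = 4.78e-04). PCSK5, another proprotein convertase, had a mean log2FC of −0.63 (SE 0.11, adjusted p = 1.18e-05), and its libraries lay at 1.30 to 4.49 times the background in the second and the third experiment. SCGN, a calcium-binding protein of neuroendocrine cells, fell by 5.77 on the log2 scale in the first experiment (adjusted p = 2.01e-12) and by 2.54 in the second (adjusted p = 5.69e-04), where the call was lost without Puro replicate 3 (log2FC −2.34, adjusted p = 0.0554).

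The next list holds the machinery that carries granules to the membrane and releases them. Of 27 listed genes 25 were tested in the first experiment, where 3 were higher and 11 lower. All 27 were tested in the second experiment, where 1 was higher and 1 lower, and in the third, where 2 were lower. In the second experiment DESeq2 and limma-voom each called 5 of them, and 12 had an unadjusted p of at most 0.05 in edgeR. In the joint fit 7 were higher (UNC13A, UNC13B, RAB3A, RAB27B, SYT11, STX1A and VAMP2) and 4 lower (RAB27A, RAB3B, SV2C and SYTL4), with a median log2FC of 0.11 over the list. RAB27A, a small GTPase that tethers granules near the membrane, was lower without overlap in all 3 experiments, at 55.5 to 60.9 CPM in Puro and 25.6 to 26.5 CPM in ABCC1 in the first. Its log2FC was −1.15, −0.87 and −0.91, with a mean of −0.91 (SE 0.10, adjusted p = 3.88e-09). RAB3B, a related GTPase, had a mean log2FC of −0.60 (SE 0.09, adjusted p = 1.78e-06), but in the third experiment it lay at 1.34 to 1.58 times the background and its log2FC was 0.11 with background reads as a covariate. SV2C, a granule and vesicle membrane protein, had a mean log2FC of −0.44 (SE 0.09, adjusted p = 2.59e-04). RAB3A, another GTPase of the same family, had a mean log2FC of 0.52 (SE 0.10, adjusted p = 5.17e-05).

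Of 15 genes of granule biogenesis, 1 was higher and 4 were lower in the first experiment, and 1 was higher and 1 lower in the third, with 3 higher and none lower in the joint fit. For the second experiment edgeR called none of them, 2 had an unadjusted p of at most 0.05, DESeq2 called 1 and limma-voom none. RAB2B, a Golgi GTPase, had a mean log2FC of 0.46 (SE 0.09, adjusted p = 1.87e-04). HID1, a factor of granule formation at the Golgi, had a log2FC of −0.12, −0.24 and −0.65 and a mean of −0.27 (SE 0.10, adjusted p = 0.0515). Its mean passed in DESeq2 (−0.36, adjusted p = 9.58e-04), with RLE scaling (−0.36, 0.00240) and with at least 10 counts in every library (−0.45, 1.42e-04). The call of HID1 in the third experiment was lost without Puro replicate 1 (−0.58, adjusted p = 0.139), Puro replicate 3 (−0.65, 0.0721), ABCC1 replicate 1 (−0.55, 0.0519) or ABCC1 replicate 3 (−0.61, 0.128). AP3B1 and TBC1D5, of endosomal sorting, were lower in the first experiment (log2FC −0.15 and −0.31) and had mean log2FC values of 0.10 each that did not pass (adjusted p = 0.677 and 0.726). The call of AP3B1 in the first experiment was lost without Puro replicate 1, 2 or 3 or ABCC1 replicate 2 (adjusted p = 0.0541 to 0.101). It was also lost without a filter on low counts (0.0821). Neither call held with background reads as a covariate (log2FC −0.15 and −0.30, adjusted p = 0.429 and 0.0716). Nor did they with the first experiment's values of the joint fit (−0.05 and −0.21), which shares spread, filter and scaling across all 18 libraries.

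Of 22 neuropeptide precursors 12 were tested in the first experiment, with 1 higher and 5 lower. In the second and the third experiment 20 were tested, with 2 higher and 1 lower, and then 1 and 1. Of 21 in the joint fit 1 was higher and 5 were lower. VIP, the precursor of vasoactive intestinal peptide, rose in every experiment without overlap. It stood at 28.8, 32.4 and 34.2 CPM in the Puro libraries of the first experiment and at 51.7, 50.8 and 48.8 CPM in the ABCC1 libraries. The log2FC of VIP was 0.67, 1.35 and 0.90, with a mean of 1.04 (SE 0.11, adjusted p = 1.23e-10). ADM, the precursor of adrenomedullin, had a mean log2FC of −0.51 (SE 0.10, adjusted p = 1.43e-04), and CALCB, a calcitonin gene-related peptide precursor, one of −0.62 (SE 0.20, adjusted p = 0.0238). CALCB passed in 11 of the 18 fits that left out 1 library, and in the third experiment it lay at 0.408 to 0.987 times the background.

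Of 16 listed neuroendocrine transcription factors, 9 were tested in the first experiment, with 1 higher and 3 lower, and edgeR called none of the 16 in the second or the third. At an unadjusted p of at most 0.05 there were 3 in the second and 2 in the third, DESeq2 called 1 in the second and none in the third, and limma-voom called none in either. In the joint fit 2 of the 16 were higher and 1 lower. PROX1 had a mean log2FC of −0.30 that did not pass there (adjusted p = 0.0601), but it passed in DESeq2 (−0.39, 6.07e-04), with RLE scaling (−0.39, 0.00175), with limma-voom quality weights (−0.28, 0.0224), when every library had to hold 10 counts or more (−0.48, 3.76e-05) and in 4 of the 18 fits that left out 1 library. ISL1, a homeodomain factor of endocrine cells and neurons, stood at 132 to 136 CPM in the Puro libraries and at 89.1 to 93.1 CPM in the ABCC1 libraries of the first experiment, where its log2FC was −0.56 (SE 0.04, adjusted p = 1.93e-06). Its mean log2FC over the 3 experiments was −0.08 and did not pass (SE 0.10, adjusted p = 0.881), although with at least 10 counts in every library it was −0.25 and passed (adjusted p = 0.00425). NEUROD1 had a mean log2FC of −1.03 (SE 0.21, adjusted p = 2.53e-04), but it held at most 2.88 times the background in the second and the third experiment. REST, which represses neuronal genes outside the nervous system, had a mean log2FC of 0.58 (SE 0.12, adjusted p = 2.39e-04), and in the third experiment it lay at 0.691 to 1.38 times the background. Of 13 listed cofactors of INSM1, 11 were tested in the first experiment, with 1 higher (HMG20B) and 5 lower, among them RCOR1, GSE1 and CCND1. The call of RCOR1 (log2FC −0.13, adjusted p = 0.0292) was lost in DESeq2 (0.0569), without a filter on low counts (0.0962), with background reads as a covariate (0.211), and without Puro replicate 1 or 3 or ABCC1 replicate 1 or 2 (0.0524 to 0.123). The joint fit called 3 of the 13 cofactors higher (RCOR2, HDAC3 and HMG20B) and none lower, a tally that moved with the processing. GSE1 was called lower in DESeq2 (mean log2FC −0.22, adjusted p = 0.0183) and with at least 10 counts in every library (−0.31, 2.59e-04), where the call of HMG20B was lost (0.13, 0.159). RCOR1 was called higher without Puro replicate 2 of the second (0.26, 0.0483) or the third experiment (0.25, 0.0405), and CCND1 without the latter (0.29, 0.0230). In the second and the third experiment edgeR called none of the 13, with 4 and 1 at an unadjusted p of at most 0.05, while DESeq2 called 1 and none and limma-voom none in either.

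**Figure D5:**
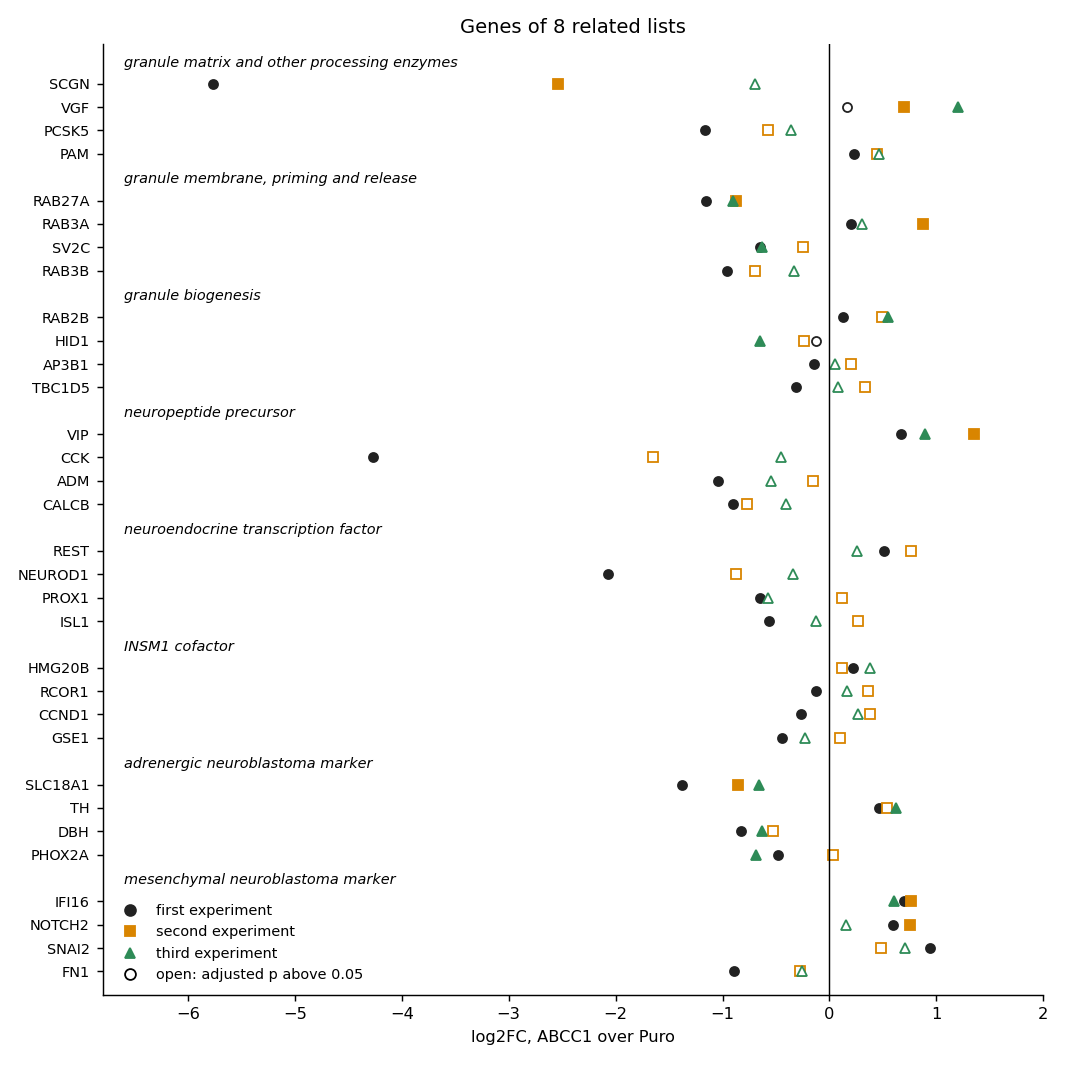
The log2FC of ABCC1 over Puro (horizontal axis) for the named genes of 8 lists, with black circles for the first, orange squares for the second and green triangles for the third experiment, filled where the adjusted p was at most 0.05. RAB27A, VIP, SLC18A1 and IFI16 have filled symbols on the same side of 0 in all 3 experiments, and SCGN spans −5.77 to −0.69.

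Few of the calls of these named genes in the second and the third experiment held in every fit that left out 1 library. Of 19 such calls 2 did, those of VGF and RAB27A in the third, and that of VGF was lost with background reads as a covariate (log2FC 0.58, adjusted p = 0.447). The call of VGF in the second experiment was lost in all 6 fits (adjusted p = 0.0624 to 0.175). In the second experiment RAB27A did not pass without Puro replicate 2 or 3 or ABCC1 replicate 2 or 3 (adjusted p = 0.0649 to 0.214), and VIP did not without Puro replicate 3 (0.0755). SLC18A1 did not pass there without Puro replicate 2 or 3 or ABCC1 replicate 2 (0.0626 to 0.124), and IFI16 did not without Puro replicate 1 or 3 or ABCC1 replicate 2 (0.0543 to 0.141). In the third experiment VIP did not pass without Puro replicate 1 or ABCC1 replicate 2 (0.107 and 0.124), and neither SLC18A1 (0.0850 to 0.229) nor IFI16 (0.162 to 0.180) did without Puro replicate 1 or ABCC1 replicate 2 or 3. With background reads as a covariate the calls of RAB27A, VIP, SLC18A1 and IFI16 in the second experiment were lost (log2FC −1.06, 0.82, −0.86 and 0.69, adjusted p = 0.301 to 0.548). Those of VIP, SLC18A1 and IFI16 in the third were lost as well (log2FC 0.97, −0.42 and 0.39, adjusted p = 0.361 to 0.671). The mean effects of RAB27A, VIP, SLC18A1 and IFI16 passed in each of the 18 fits that left out 1 library.

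Markers of neuroblastoma cell states were counted in the same way. Of 12 adrenergic markers, 3 were higher and 5 lower in the first experiment, 1 was lower in the second, and 1 was higher and 3 were lower in the third. In the second experiment DESeq2 and limma-voom each called 5 of them, and 7 had an unadjusted p of at most 0.05 in edgeR. In the joint fit 4 were higher (HAND2, MYCN, TH and STMN2) and 3 lower (PHOX2A, DBH and SLC18A1). SLC18A1, the transporter that loads monoamines into chromaffin granules, was lower without overlap in all 3 experiments, with a log2FC of −1.38, −0.86 and −0.66 and a mean of −0.90 (SE 0.09, adjusted p = 5.48e-11). DBH, an enzyme of noradrenaline synthesis inside granules, had a mean log2FC of −0.60 (SE 0.10, adjusted p = 2.34e-05), while TH, the enzyme that starts catecholamine synthesis, had one of 0.61 (SE 0.09, adjusted p = 2.53e-06). PHOX2A, a factor of noradrenergic identity, had a mean log2FC of −0.31 (SE 0.11, adjusted p = 0.0396) and passed in 5 of the 18 fits that left out 1 library. Of the 12 mesenchymal markers, 6 were higher and 4 lower in the first experiment, 2 were higher in the second and 1 in the third, and 3 were higher and 1 lower in the joint fit. IFI16 had a mean log2FC of 0.76 (SE 0.09, adjusted p = 5.83e-09), NOTCH2 0.57 (adjusted p = 1.64e-06), SNAI2 0.78 (adjusted p = 1.05e-06) and FN1 −0.41 (adjusted p = 2.13e-04), and in the third experiment FN1 lay at 1.45 to 1.81 times the background. The part of these marker changes in the results of INSM1 and PCSK1 was not tested.

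The genes whose levels followed INSM1 most closely were ranked by Pearson's r of log2(CPM + 0.1) over the 18 libraries, after centring within each experiment, among 12216 protein-coding genes. The 18 points share the same contrast between lines, so r is a description of likeness and has no p. FAIM2 came first (r = 0.969), followed by MSI1 (0.963), ARHGAP36 (0.961), TOX2 (0.960), BMP7 (0.958), NRP1 (0.954), SEZ6 (0.953) and CCDC3 (0.948). Among the 10 genes PCSK1 was the most like INSM1 (r = 0.841, rank 171), followed by CHGA (0.707) and CHGB (0.644), and INSM2 had an r of −0.52. After centring within each group, which removes the difference between lines, r was 0.42 for PCSK1, 0.70 for CHGA, 0.78 for INSM2 and 0.81 for PCSK1N. Puro replicate 2 of the third experiment was the highest of its group for each of the 10 genes. Its TMM factor was 0.938, against 1.12 and 1.09 in the other Puro libraries of that experiment, and its part in these correlations was not tested.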

How the data were processed

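The authors deposited 1 table of raw counts per library, made with featureCounts (Subread v2.0.0, without strand and without reads that overlap several genes) after alignment with STAR v2.7.3a to GRCh37 with Ensembl annotation and the vector sequences. Per the submitters' processing notes, reads were written with bcl2fastq v2.18. The first experiment was made with a poly(A) kit (TruSeq RNA v2) and the other two with a total RNA kit (SMARTer pico), as the study describes it, although the labels name both kits, so experiments were fitted apart and kit and experiment cannot be told apart. Each table held 57905 Ensembl genes, 92 spike-ins and 6 vector sequences. Symbols were found for 52338 IDs in a table of gene names and in the GENCODE annotation, which also gave the gene types. RefSeq synonyms were used for former symbols of listed genes.

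ABCC1 was compared with Puro within each experiment by the edgeR (4.0.16, R 4.3.3) quasi-likelihood test, two-sided, with robust estimation, TMM scaling and filterByExpr at a minimum count of 10. A joint fit of the 18 libraries gave the mean of the 3 contrasts (common effect) and their difference between experiments. It was filtered and TMM-scaled over all 18 libraries together. Its mean can therefore differ from the mean of the 3 log2FC values fitted within the experiments. P-values were adjusted by the Benjamini-Hochberg method over all Ensembl genes tested, and 0.05 was the threshold. DESeq2 1.42.0, limma 3.58.1, other scalings and filters, a replicate block, a background covariate, a shared spread and leaving out each library were alternatives. The shared spread was that of the joint fit, so the filter and the scaling changed with it. Levels are CPM on the TMM-scaled library size, and CPM/kb divides by the exonic length. Libraries of a group differed by more than sampling noise in each pair (chi-square per degree of freedom of 1.53 or more).

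Named genes were the 10 members, up to 4 genes of each of 8 other lists (those called in most experiments in 1 direction, ties broken by the p of the common effect), and the 8 genes most correlated with INSM1 among protein-coding genes tested in all experiments at a mean CPM of at least 1. The members and lists were chosen with earlier results of these data known. One listed gene is not reported here, and its list was counted without it.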

Additional observations from a re-analysis of the deposited data

Results flagged for a closer look

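In the test of a difference between experiments, SCGN and CCK were the named genes whose effect of ABCC1 was not the same in the 3 experiments. SCGN, which encodes the calcium-binding protein secretagogin, had a log2FC of −5.77 in the first experiment, −2.54 in the second and −0.69 in the third (adjusted p of the difference = 4.61e-17, edgeR joint fit). Its mean level was 118 CPM in Puro and 2.18 CPM in ABCC1 in the first experiment, 10.6 and 1.81 CPM in the second, and 3.80 and 2.34 CPM in the third. In the third experiment SCGN lay at 0.946 to 1.92 times the background of its libraries.

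CCK, the precursor of cholecystokinin, had a log2FC of −4.27, −1.65 and −0.45 in the first, the second and the third experiment (adjusted p of the difference = 0.0322). With 1 library left out the log2FC in the first experiment ranged from −5.64, without ABCC1 replicate 1, to −3.89. In the first experiment the Puro libraries held 73 CCK counts in all and the ABCC1 libraries 5, a ratio of 21 after division by the TMM-scaled library sizes (exact 95% interval 8.58 to 66.5, counting error only) in favour of Puro. In the second and the third experiment CCK lay at 0.452 to 1.38 times the background. The part of the background in these differences was not tested.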

How the results depend on the processing

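Of 349 values of the 10 genes under settings other than leaving out a library, 304 kept their direction and their side of the threshold (or moved by less than the replicate spread), and of 360 values with 1 library left out 325 did. For INSM1 the log2FC stayed below 0 in each setting run, at −2.93 to −2.54, −1.49 to −1.36 and −2.48 to −1.99 in the first, the second and the third experiment with 1 library left out, −1.58 in the second with at least 10 counts in every library, and −3.12 in the third with background reads as a covariate. Libraries were shallowest in the third experiment, where INSM1 in the ABCC1 libraries and PCSK2, PCSK5, SCGN, RAB3B, CCK, CALCB, REST, NEUROD1 and FN1 in all libraries lay below 2 times the background. The causes of the changes below were not tested.

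With 1 library left out, the genes called ranged from 4663 to 7827 in the first experiment, 5 to 1359 in the second and 394 to 2761 in the third, from 4898 to 7196 for the common effect and from 334 to 1113 for the difference. The count among the 9 genes was 4 throughout in the first, 0 to 1 in the second, 0 to 2 in the third, 2 to 5 for the common effect and 0 to 1 for the difference. With the background covariate 1131 genes and 1 of the 9 were called in the first experiment, 12 and 0 in the second and 140 genes in the third. With a spread shared across the 18 libraries 1528 genes and 1 of the 9 were called in the first and 4923 genes in the second. That setting took the values of the joint fit, with its filter and scaling over the 18 libraries. DESeq2 called 2727 genes and 2 of the 9 in the second, 1553 genes in the third, 4 of the 9 for the common effect, and 888 genes and 1 of the 9 for the difference. In the second experiment limma-voom called 1299 genes, RLE scaling 1086 and no filter on low counts 1399. With quality weights limma-voom called 9451 genes and 4 of the 9 for the common effect, and 1438 genes and 2 of the 9 for the difference. RLE scaling called 4 of the 9 for the common effect. With at least 10 counts in every library, 1725 genes and 2 of the 9 were called in the third experiment, 4 of the 9 for the common effect and 363 genes for the difference.

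Another scaling or filter also moved the split of calls. Of the genes called for the common effect 72.6% were higher with TMM, 57.2% with RLE and 44.8% with at least 10 counts in every library. In the second experiment 73.1% were higher with TMM and 44.4% with that filter, and in the third 72.6% with TMM and 82.9% with RLE. The median log2FC in the second experiment was −0.19 with TMM and −0.08 with that filter, each over a different set of genes. INSM1, tested both ways there, went from −1.46 to −1.58, VGF from 0.70 to 0.57 and RAB3B from −0.70 to −0.82.

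The replicate numbers of the labels did not pair the libraries, since deviations from the group means correlated between same-numbered libraries at a mean r of −0.093, −0.085 and 0.053 in the 3 experiments. With those numbers fitted as a replicate block, 1885 genes and 3 of the 9 (INSM2, CHGB and PCSK1) were called in the third experiment and 4 of the 9 (INSM2, PCSK1, SCG5 and PCSK1N) for the common effect. No other count of calls moved by over 1.5 times under the block. Among the other named genes the block ended the calls of RAB2B, AP3B1 and RCOR1 in the first experiment (adjusted p = 0.0899, 0.0762 and 0.0877). It also ended that of VGF in the second (0.0843), and PAM and PROX1 were called in the third (0.0413 and 0.0242).

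Signs turned only in values that passed the test in neither setting. With the background covariate the log2FC was −0.0064 for INSM2, −0.063 for SCG5 and 0.033 for HID1 in the first experiment, −0.25 for CHGB, 0.79 for PCSK2, −0.029 for TBC1D5, −0.30 for PROX1, −0.24 for GSE1 and −0.12 for PHOX2A in the second experiment, and −0.16 for SCG3, −0.15 for SCG5, 0.25 for PCSK2, −0.25 for PCSK1N, 0.11 for PCSK5, −0.054 for PAM, 0.11 for RAB3B, −0.058 for AP3B1, −0.30 for TBC1D5, 0.68 for CCK, 0.44 for NEUROD1 and −0.23 for CCND1 in the third experiment. With the shared spread of the joint fit, whose filter and scaling also differ, it was 0.0055 for SCG3 and 0.058 for PCSK2 in the first experiment. With at least 10 counts in every library it was −0.040 for SCG2, −0.0037 for PROX1, −0.023 for GSE1 and −0.091 for PHOX2A in the second experiment, and −0.080 for AP3B1 and −0.085 for TBC1D5 for the common effect. With quality weights it was 0.042 for SCG2 for the common effect. With background reads subtracted it was 0.017 for PCSK2 in the first experiment, and 3.12 for PCSK2 in the second experiment. Relative to the median of its GC bin it was −0.028 for INSM2 in the first experiment, and −0.013 for SCG2 in the second experiment. With 1 library left out the range was −0.046 to 0.057 for INSM2, −0.22 to 0.054 for PCSK2, −0.033 to 0.47 for PCSK1N and −0.037 to 0.29 for VGF in the first experiment, −0.15 to 0.24 for SCG2, −0.056 to 0.37 for PROX1, −0.039 to 0.23 for GSE1 and −0.070 to 0.14 for PHOX2A in the second experiment, −0.29 to 0.093 for CHGA, −0.18 to 0.15 for SCG2, −0.36 to 0.061 for PCSK2, −0.21 to 0.051 for ISL1 and −0.025 to 0.24 for TBC1D5 in the third experiment, and −0.13 to 0.053 for SCG2 and −0.13 to 0.0071 for ISL1 for the common effect.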
